A study of Mus musculus with 45 samples.

Results

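The second day of a combined retinoic acid (RA) and BMP4 treatment was read from 6 of the 45 bulk RNA-seq libraries of this study: the 3 labelled M4 (day 4) and the 3 labelled M5 (day 5). The libraries were chosen by their labels, and no measured value entered the choice. Mouse embryonic stem cells (mESCs) had been grown as adherent cultures, directed with basic FGF and the WNT activator CHIR toward neuromesodermal progenitors (NMPs), and treated from day 3. Both M groups received 100 nM RA together with 10 ng/ml BMP4, for 24 h in M4 and for 48 h in M5. The reference groups R4 and R5 received 100 nM RA alone for 24 h and 48 h, going by the day in their labels, since the labels' protocol and titles give RA intervals that differ by 1 day. The protocol also calls the combined condition C, where the sample titles use M. The labels name no cell line, genotype or strain beyond mESCs. According to the series' design text the libraries came from 3 independent differentiations, but no label says whether a replicate number marks one of them. If libraries of a group share a differentiation, the p-values measure a spread that is partly technical.

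NMPs are the progenitors of the embryonic tail end that give rise to both spinal cord and paraxial mesoderm, and FGF and WNT signals keep them in that state. RA, made by the neighbouring somites, represses Fgf8 and promotes neural differentiation. BMP4 signals through SMAD proteins, induces Id and Msx genes, gives dorsal identity to neural tissue, and favours lateral plate, heart and blood-forming mesoderm over paraxial mesoderm in earlier progenitors.

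The deposited table holds a normalized level for 11220 genes, kept by the authors for passing a false discovery rate of 0.1 in 1 or more of their 12 comparisons, none of which is M5 against M4. Counts of genes therefore refer to this list alone. The levels are not read counts and the depth of each library is unknown. Their sum over the listed genes was 13539110 to 14339238 in the 6 libraries. A change is given as the log2 ratio of level + 1, a scale on which the changes of weakly expressed genes come out too small. Changes were tested with limma-trend over all 45 libraries with Benjamini-Hochberg adjustment over 11220 genes, and called under an adjusted p of 0.05. Levels correlated between M4 libraries with r of 0.9708 to 0.9832, and between M5 libraries with r of 0.9821 to 0.9908 (log2 levels across genes, which are not independent replicates). All libraries carry the cell type label mESCs. The pluripotency gene Pou5f1 overlapped between M4 and M5, and the lateral plate gene Hand1 was far above its RA-alone level in every M4 and M5 library, with values given below. Each call was repeated with each of the 6 libraries left out and with the 6 libraries fitted alone, and calls that were lost are given with their adjusted p.

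Between M4 and M5, 1163 genes were called (10.4% of those tested): 586 rose (5.22%) and 577 fell (5.14%). Of these, 287 rose and 317 fell by 2-fold or more. The M5 levels lay above or below every M4 level in 573 of the risen and 542 of the fallen genes, where 14.3% of all genes had M5 entirely above M4 and 13% entirely below. The calls were made from the same levels, so this contrast with all genes is a description. The count rested on some libraries more than others: it was 645 without M4 replicate 3 and 636 without M5 replicate 2. With the 6 libraries fitted alone it was 496.

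**Figure D1:**
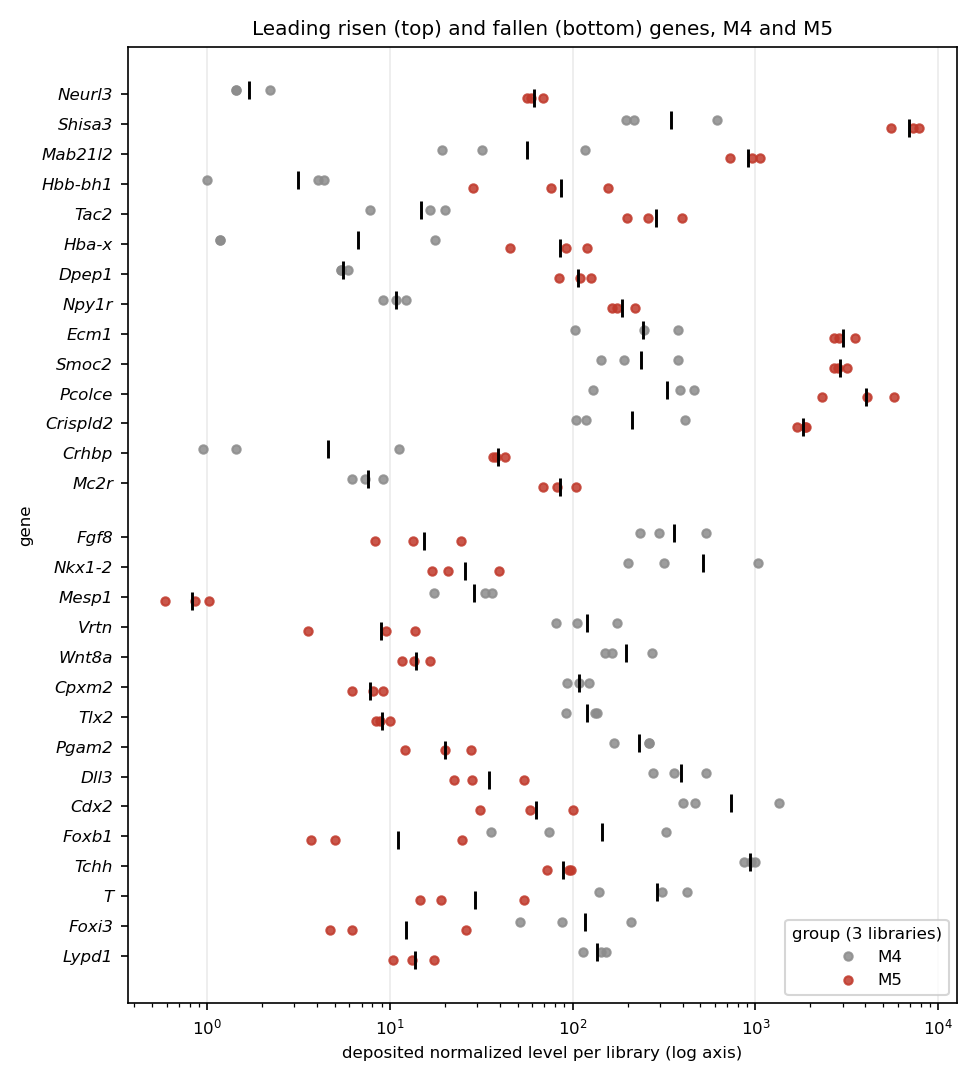
Deposited level per library on a log axis for 14 risen genes (top) and 15 fallen genes (bottom) from those with the largest log2 changes among called genes without overlap. Gray points are the 3 M4 libraries, red points the 3 M5 libraries, and black ticks the group means. The M5 points lie to the right of every M4 point in the top block and to the left in the bottom block, as the choice of genes required.

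The largest rise was that of Neurl3 (mm10 chromosome 1, 36264597 to 36274679, minus strand), which encodes a RING-domain protein related to Neuralized. Its level was 2.22, 1.43 and 1.44 in M4 and 69.02, 58.8 and 55.9 in M5 (log2 change 4.54, SE 0.49, adjusted p = 1.5e-07). All 3 M4 libraries were low and all 3 M5 libraries were far above them. Shisa3, which encodes an inhibitor of WNT and FGF receptor maturation, stood at 617, 217 and 195 in M4 and 5487, 7266 and 7880.0 in M5 (log2 change 4.51, SE 0.73, adjusted p = 6.8e-05). Mab21l2 (mm10 chromosome 3, 86545581 to 86548629, minus strand), required for eye and ventral body wall development, was measured at 117, 31.9 and 19.2 in M4 and 727, 1065 and 955 in M5 (log2 change 4.40, SE 0.79, adjusted p = 0.00029). M4 replicate 1 was the highest of the M4 libraries for both genes and still lay below every M5 library. The leading genes, risen and fallen, were chosen from called genes without overlap, so their separation follows from that choice.

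The promoter windows of genes at the top and bottom of the change are shown for the motifs they hold, since their levels moved far in all 3 libraries. The windows run from 250 bases before to 50 bases after the start site in RefSeq (GRCm38.p6), read 5′ to 3′ on the gene's strand, with motif matches in capitals. Both strands were searched for 5 motifs. TATAAA is the core promoter box. GGCGCC is bound by the SMAD proteins of the BMP pathway. AGATAA is recognised by factors such as Gata4. AGGTCA is the half-site of nuclear receptors, which include the RA receptors. CAGCTG is an E-box bound by helix-loop-helix proteins. The Neurl3 window is chr1:36273376-36273675 (minus strand), that of Mab21l2 is chr3:86548234-86548533 (minus strand), and that of Vrtn, a fallen gene, is chr12:84640769-84641068 (plus strand). The windows of Neurl3 and Mab21l2 lie inside the gene spans given above, which are those of GENCODE. Their RefSeq start sites thus differ from the ends of those spans.
Neurl3: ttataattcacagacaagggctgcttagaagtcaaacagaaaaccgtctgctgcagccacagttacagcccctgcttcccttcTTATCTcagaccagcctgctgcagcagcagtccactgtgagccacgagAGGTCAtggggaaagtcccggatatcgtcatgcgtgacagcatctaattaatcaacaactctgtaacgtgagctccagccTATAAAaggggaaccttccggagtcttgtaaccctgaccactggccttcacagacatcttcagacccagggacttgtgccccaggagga
Mab21l2: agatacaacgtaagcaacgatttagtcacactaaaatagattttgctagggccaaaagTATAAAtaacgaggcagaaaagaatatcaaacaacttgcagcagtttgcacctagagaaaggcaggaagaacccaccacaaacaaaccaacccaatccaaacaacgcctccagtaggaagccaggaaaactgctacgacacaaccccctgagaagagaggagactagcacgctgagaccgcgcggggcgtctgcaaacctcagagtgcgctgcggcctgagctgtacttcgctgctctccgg
Vrtn: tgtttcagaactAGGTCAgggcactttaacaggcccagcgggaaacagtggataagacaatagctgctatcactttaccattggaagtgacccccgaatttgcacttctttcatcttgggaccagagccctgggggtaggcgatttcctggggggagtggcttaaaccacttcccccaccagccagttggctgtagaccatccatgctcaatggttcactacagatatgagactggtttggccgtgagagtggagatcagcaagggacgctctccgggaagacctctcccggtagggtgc
In Neurl3, TATAAA began 39 bases before the start site, AGGTCA 119 bases before it, and a reverse-strand AGATAA match (printed TTATCT) 167 bases before it. In Mab21l2, TATAAA began 192 bases before the start site. In Vrtn, AGGTCA began 238 bases before it. The windows of Shisa3, Nkx1-2 and Mesp1 held none of the 5 motifs. Among 32851 promoters of the same length, 13.6% held TATAAA, 11.9% GGCGCC, 11.2% AGATAA, 16.3% AGGTCA and 16.3% CAGCTG. These matches describe the letters of the windows and show no binding.

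Several of the other leading risen genes encode secreted or neuropeptide-system proteins. Tac2, the neurokinin B precursor, was at 16.6, 20.1 and 7.81 in M4 and 396, 259.7 and 197 in M5 (log2 change 4.20, SE 0.47, adjusted p = 3.1e-07). Npy1r, a neuropeptide Y receptor, was at 10.9, 9.17 and 12.3 in M4 and 164, 219 and 174 in M5 (log2 change 3.99, SE 0.40, adjusted p = 3.3e-08). Both genes had M5 libraries that lay well clear of M4. Crhbp, which binds corticotropin-releasing hormone, rose by 3.37 (adjusted p = 5.5e-05), and Mc2r, the corticotropin receptor, by 3.32 (adjusted p = 2.2e-05). The dipeptidase gene Dpep1 rose by 4.02 (adjusted p = 0.00020). Matrix and matricellular genes were also among the leading risen genes. Ecm1 was at 375, 246 and 103 in M4 and 3511, 2862 and 2679 in M5 (log2 change 3.82, SE 0.86, adjusted p = 0.0027). Pcolce, an enhancer of procollagen processing, was at 387, 461 and 129.8 in M4 and 5745, 4089 and 2318 in M5 (log2 change 3.73, SE 0.73, adjusted p = 0.00066). Smoc2, a BMP- and FGF-modulating matricellular protein gene, rose by 3.73 (adjusted p = 8e-05) and Crispld2 by 3.38 (adjusted p = 0.0023). None of these genes had an M4 library within the range of M5, as the choice of leading genes required. The embryonic globin genes Hbb-bh1 and Hba-x, also among the leading risen genes, are described with the blood genes.

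The fallen genes were led by Fgf8 (mm10 chromosome 19, 45736798 to 45742915), the FGF ligand of the caudal progenitor zone. Its level was 234, 297 and 539 in M4 and 8.24, 13.3 and 24.6 in M5 (log2 change -4.48, SE 0.86, adjusted p = 0.00054). All 3 M5 libraries lay far below all 3 M4 libraries. Mesp1, an early mesoderm transcription factor, was at 17.4, 36.3 and 33.3 in M4 and 0.591, 0.855 and 1.02 in M5 (log2 change -3.98, SE 0.78, adjusted p = 0.00067). Dll3, a Notch ligand of the presomitic mesoderm, was at 357, 274 and 537 in M4 and 22.4, 27.95 and 54.2 in M5 (log2 change -3.49, SE 0.53, adjusted p = 3.1e-05). Both genes were low in all 3 M5 libraries. Vrtn (mm10 chromosome 12, 84641019 to 84651455, plus strand), which controls vertebral number, was at 105, 174 and 81.03 in M4 and 13.6, 3.57 and 9.46 in M5 (log2 change -3.70, SE 0.74, adjusted p = 0.00088). Tchh, the gene of a structural protein of hair follicles, was at 939.9, 869.7 and 989 in M4 and 72.3, 98.3 and 95.7 in M5 (log2 change -3.39, SE 0.30, adjusted p = 3.8e-09). Lypd1, a modulator of nicotinic receptors, stood at 152, 113 and 144 in M4 and 13.3, 10.4 and 17.5 in M5 (log2 change -3.24, SE 0.30, adjusted p = 4.5e-09). In Vrtn, Tchh and Lypd1 every M5 library lay below every M4 library, again as the choice of leading genes required. The WNT ligand Wnt8a fell by 3.67 (adjusted p = 0.0016), the carboxypeptidase-like Cpxm2 fell by 3.63 (adjusted p = 8.5e-06), the homeobox gene Tlx2 fell by 3.57 (adjusted p = 0.00055) and the muscle phosphoglycerate mutase Pgam2 fell by 3.51 (adjusted p = 2.9e-05).

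The remaining leading fallen genes rested on fewer libraries. The NMP homeobox gene Nkx1-2 was at 202, 315 and 1029 in M4 and 20.7, 16.99 and 39.3 in M5 (log2 change -4.01, SE 1.03, adjusted p = 0.0089). Its call was lost without M4 replicate 3 or M5 replicate 2 (adjusted p up to 0.082) and kept with the 6 libraries alone (adjusted p = 0.023). Foxb1 fell by 3.42 (adjusted p = 0.021), a call lost without M4 replicate 3 or M5 replicate 1 or 2 (adjusted p up to 0.18) and with the 6 libraries alone (adjusted p = 0.095). Foxi3 fell by 3.26 (adjusted p = 0.014), a call lost without M4 replicate 2 or M5 replicate 2 or 3 (adjusted p up to 0.078) and with the 6 libraries alone (adjusted p = 0.057). M4 replicate 3 held the highest M4 level of Nkx1-2 and Foxb1, and M4 replicate 2 that of Foxi3. T and Cdx2, the other leading fallen genes, are described with the caudal genes.

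**Figure D2:**
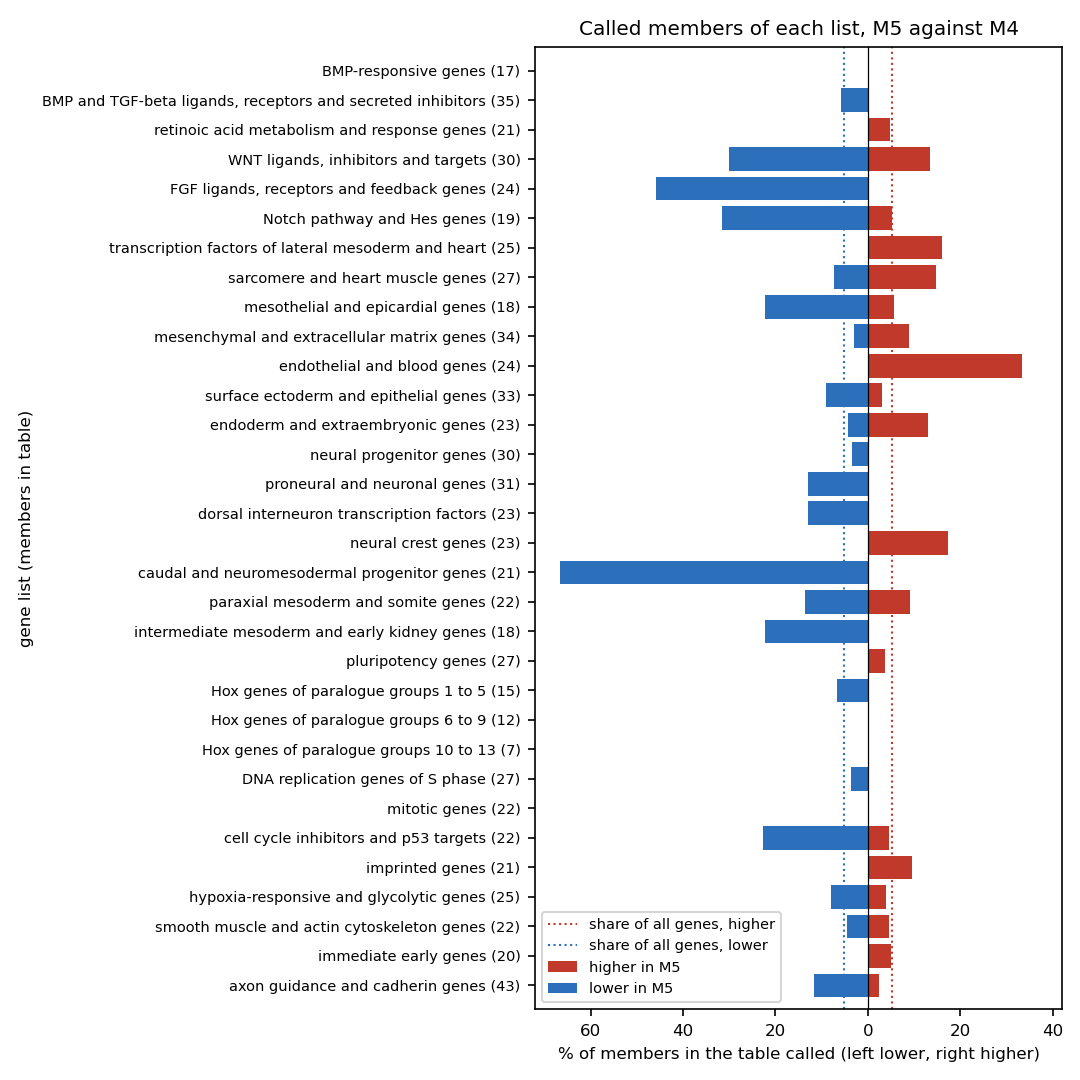
Share of each gene list's members in the table that were called higher (red, right) or lower (blue, left) in M5 than in M4, with the number of members in parentheses. Dotted lines mark the shares of all genes, 5.22% higher and 5.14% lower, and the caudal progenitor list reaches farthest to the left, with 14 of 21 members lower.

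Caudal and NMP genes fell as a group. Among 21 members in the table, 14 fell and 0 rose, and the median change was -2.50, where the median over all genes was -0.0016. Of all genes, 5.22% rose and 5.14% fell, and the counts of each list below are to be read beside these shares. The T-box gene T (Brachyury), which defines the NMP and nascent mesoderm state, was at 139.9, 307 and 421 in M4 and 14.7, 19.04 and 54.1 in M5 (log2 change -3.35, SE 1.04, adjusted p = 0.033). Cdx2, a caudal homeobox gene, was at 402, 466 and 1348 in M4 and 30.96, 58.6 and 100.1 in M5 (log2 change -3.45, SE 0.95, adjusted p = 0.015). Evx1, a homeobox gene of the primitive streak, was at 178, 263 and 396 in M4 and 19.3, 27.4 and 53.1 in M5 (log2 change -3.08, SE 0.62, adjusted p = 0.00088). The M5 levels of these genes lay below every M4 level, which the choice of leading genes required of T and Cdx2. Sp5, a direct WNT target, was at 338, 442 and 766 in M4 and 70.5, 67.8 and 129 in M5 (log2 change -2.50, SE 0.46, adjusted p = 0.00039). The other fallen members, beside Fgf8, Mesp1, Wnt8a and Nkx1-2, were Fgf17 (-2.92), Tbx6 (-2.64), Rspo3 (-2.33), Epha5 (-1.90), Wnt3a (-1.76) and Wnt5b (-1.35). Members that were not called included Cdx1 (249, 298 and 735 in M4 and 38.5, 47.7 and 133 in M5, log2 change -2.58, adjusted p = 0.094) and Cdx4 (18.4, 65.1 and 323 in M4 and 7.54, 7.08 and 41.7 in M5, log2 change -2.38, adjusted p = 0.27).

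The summed level of the 21 caudal genes was 7089, 5636 and 14285 in M4 replicates 1, 2 and 3 and 1802, 2147 and 3690 in M5. M4 replicate 3 was the highest, and the groups did not overlap. Several calls in this list were lost without that library or without others. The call of T was lost without M4 replicate 2 or 3 or M5 replicate 1 or 2 (adjusted p up to 0.14), and that of Cdx2 without M4 replicate 3 or M5 replicate 1 or 2 (adjusted p up to 0.10). Both were kept with the 6 libraries alone, at an adjusted p of 0.032 for T and 0.027 for Cdx2. The main fit also holds the D3 libraries, where T was at 14602, 933 and 706 and Cdx2 at 11029, 647 and 839. The part of these libraries in the SE was not tested. Tbx6 lost its call without M4 replicate 3 or M5 replicate 1 (adjusted p up to 0.096), and Wnt5b without M4 replicate 3 or M5 replicate 1 or 2 (adjusted p up to 0.13) and with the 6 libraries alone (adjusted p = 0.066). Epha5 lost it without M4 replicate 1 or 3 or M5 replicate 1 or 2 (adjusted p up to 0.32) and with the 6 libraries alone (adjusted p = 0.24), and Rspo3 with the 6 libraries alone (adjusted p = 0.070). Over the 6 left-out libraries the number of called members ranged from 7 to 14. Bulk RNA cannot tell fewer cells of a type from less RNA of these genes per cell.

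FGF signalling genes also fell. Of 24 ligands, receptors and feedback genes, 11 fell and 0 rose, with a median of -0.69. Besides Fgf8 and Fgf17, the ligand genes that fell were Fgf18 with 117, 92.6 and 105 in M4 and 38.6, 28.9 and 26.9 in M5 (log2 change -1.72, SE 0.35, adjusted p = 0.0012) and Fgf3 with 50.8, 83.97 and 74.2 in M4 and 25.98, 19.1 and 16.3 in M5 (log2 change -1.71, SE 0.40, adjusted p = 0.0036), along with Fgf15 (-1.99) and Fgf9 (-2.05). Both printed ligands had M5 levels below every M4 level. Among feedback inhibitors, which FGF signalling itself induces, Spry1 was at 956, 753 and 869.9 in M4 and 433, 412 and 497 in M5 (log2 change -0.94, SE 0.18, adjusted p = 0.00056) and Il17rd (Sef) at 2683, 2437 and 3423 in M4 and 956, 1134 and 1348 in M5 (log2 change -1.31, SE 0.28, adjusted p = 0.0018). Each fell by a modest amount with little spread among the libraries. Spred1 fell by 0.49, Dusp4 by 0.78 and the binding protein gene Fgfbp3 by 1.60. Other readouts of the pathway were not called, among them Dusp6 (-0.60, adjusted p = 0.14), Etv4 (-0.85, adjusted p = 0.46) and Spry2 (0.06, adjusted p = 0.93). Fgf9 lost its call without M4 replicate 1 or 3 or M5 replicate 1 or 2 (adjusted p up to 0.14) and with the 6 libraries alone (adjusted p = 0.081). Dusp4 lost its call without M4 replicate 1 or 3 or M5 replicate 1 or 2 (adjusted p up to 0.21) and with the 6 libraries alone (adjusted p = 0.096). The call of Fgfbp3 was lost without M4 replicate 1 or 3 or M5 replicate 1 or 2 (adjusted p up to 0.24) and with the 6 libraries alone (adjusted p = 0.12), and that of Fgf15 without M5 replicate 2 (adjusted p = 0.11) and with the 6 libraries alone (adjusted p = 0.10).

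WNT genes moved in both directions. Of 30 ligands, inhibitors and targets, 4 rose and 9 fell, with a median of -0.78. The risen members were Sfrp5, a secreted inhibitor, with 92.97, 48.7 and 148 in M4 and 475, 599.6 and 598 in M5 (log2 change 2.65, SE 0.56, adjusted p = 0.0014), the inhibitor Sfrp1 (2.23, adjusted p = 0.0049), the ligand Wnt2 (2.29, adjusted p = 0.0058) and the agonist Rspo2 (2.23, adjusted p = 0.0053). All 3 M5 libraries of Sfrp5 lay well above the highest M4 library. Wnt6, a ligand expressed in surface ectoderm, was at 1206, 714 and 883 in M4 and 488, 402 and 440.5 in M5 (log2 change -1.04, SE 0.21, adjusted p = 0.00076). The feedback gene Axin2 was at 3766, 2735 and 4201 in M4 and 1350.1, 1601 and 2333 in M5 (log2 change -1.03, SE 0.24, adjusted p = 0.0039). Both had M5 levels below every M4 level, and with the 6 libraries fitted alone the adjusted p of Axin2 was 0.062. Wnt3a, which drives NMP maintenance, overlapped between the groups at 145, 132 and 230.3 in M4 and 61.1, 11.4 and 148 in M5 (log2 change -1.76, SE 0.56, adjusted p = 0.040), and its call was lost without M4 replicate 1, 2 or 3 or M5 replicate 1 or 2 (adjusted p up to 0.46) and with the 6 libraries alone (adjusted p = 0.29). Wnt3 (-1.65) and Tnfrsf19 (-1.44) also fell. Wnt3 lost its call without M4 replicate 1 or M5 replicate 1, 2 or 3 (adjusted p up to 0.25) and with the 6 libraries alone (adjusted p = 0.15), Tnfrsf19 without M4 replicate 3 (adjusted p = 0.052) and with the 6 libraries alone (adjusted p = 0.079) and Rspo2 without M4 replicate 2 (adjusted p = 0.053).

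Of 19 Notch pathway and Hes genes, 6 fell and 1 rose, with a median of -0.58. With 1 library left out 2 to 7 of them were called, 2 of them without M4 replicate 3. Hey2, a cardiac and vascular effector, was at 76.3, 53.3 and 81.5 in M4 and 195, 253 and 315 in M5 (log2 change 1.84, SE 0.34, adjusted p = 0.00043), with every M5 library above M4. Hes7, the oscillating repressor of the presomitic mesoderm, was at 67.1, 95.01 and 251 in M4 and 12.04, 11.6 and 23.9 in M5 (log2 change -2.88, SE 0.67, adjusted p = 0.0039). Dll1, a Notch ligand, was at 459, 229 and 825 in M4 and 83.9, 54.4 and 276 in M5 (log2 change -2.02, SE 0.48, adjusted p = 0.0048), where M4 replicate 2 overlapped M5 replicate 3. The calls were lost for Hes7 without M4 replicate 3 (adjusted p = 0.054) and for Dll1 without M4 replicate 3 or M5 replicate 2 (adjusted p up to 0.073) and with the 6 libraries alone (adjusted p = 0.15). Nrarp (-1.60), Lfng (-1.37) and Hes1 (-0.47) fell too. The call of Nrarp was lost without M4 replicate 3 or M5 replicate 1 or 2 (adjusted p up to 0.20) and with the 6 libraries alone (adjusted p = 0.13). Lfng lost its call without M4 replicate 1 or 3 or M5 replicate 2 (adjusted p up to 0.25) and with the 6 libraries alone (adjusted p = 0.28), and Hes1 without each of the 6 libraries in turn (adjusted p up to 0.12). Among 22 paraxial mesoderm and somite genes, 3 fell (Dll3, Hes7 and Lfng) and 2 rose (Tbx18 and Nkx3-2). Nkx3-2 lost its call without M4 replicate 3 or M5 replicate 2 (adjusted p up to 0.060).

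No BMP-responsive gene was called in either direction. Of 17 such genes, 0 rose and 0 fell, 1 had an unadjusted p under 0.05, 12 had a negative change, and the median was -0.39. The number called by limma-trend was 1 without M4 replicate 2, 1 with the 6 libraries alone and 7 with library weights. Library weights called 4921 of all 11220 genes, so the 7 are to be read beside that share. That fit gave M5 replicate 2 a weight of 7.736 and M4 replicate 2 one of 0.352. Id1, a direct SMAD target, was at 8663, 5271 and 6130.1 in M4 and 3569, 3812 and 4564 in M5 (log2 change -0.72, SE 0.38, adjusted p = 0.24), so that all M5 levels lay below M4. Msx2 was at 6795, 1979.6 and 4201 in M4 and 964, 1309 and 1763 in M5 (log2 change -1.55, SE 1.07, adjusted p = 0.41), again without overlap, and Msx1 at 11106, 1901 and 9863 in M4 and 814, 1642 and 4115 in M5 (log2 change -1.75, SE 0.87, adjusted p = 0.21) with overlap. The M4 libraries spread widely for the Msx genes, with replicate 2 the lowest in each. Fitted on the 6 libraries alone, Id1 had an adjusted p of 0.088 and Msx2 of 0.10. The summed level of the 17 genes was 73267, 37291 and 53302 in M4 and 32481, 36707 and 43381 in M5. Of 35 BMP and TGF-beta ligands, receptors and secreted inhibitors, 2 fell and 0 rose. The ligand gene Bmp7 was at 2065, 1021 and 1792 in M4 and 513, 619.6 and 1014 in M5 (log2 change -1.18, SE 0.29, adjusted p = 0.0056), and Bmp2 at 161, 111 and 161 in M4 and 60.6, 102 and 76.3 in M5 (log2 change -0.86, SE 0.24, adjusted p = 0.017). In both genes M5 lay below M4. Bmp7 lost its call without M5 replicate 1 (adjusted p = 0.054) and with the 6 libraries alone (adjusted p = 0.10), and Bmp2 without M4 replicate 1 or 3 or M5 replicate 1 (adjusted p up to 0.12) and with the 6 libraries alone (adjusted p = 0.13). Nog, a secreted BMP inhibitor, was at 1473, 564 and 1481 in M4 and 179, 221 and 415 in M5 (log2 change -2.07, SE 0.79, adjusted p = 0.092).

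RA response genes were spread around 0. Of 21 members, 1 rose and 0 fell, with a median of -0.10. The call was for the RXR receptor gene Rxra, with 2208, 2071 and 2153 in M4 and 2730.3, 2981 and 3043 in M5 (log2 change 0.44, SE 0.09, adjusted p = 0.0010). Cyp26a1, the RA-degrading enzyme that RA induces, was at 1134, 468 and 1816 in M4 and 354, 468 and 734 in M5 (log2 change -0.99, SE 0.58, adjusted p = 0.30), with overlapping groups.

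Lateral mesoderm and heart transcription factors that were called all rose, 4 of 25, with 0 fallen and a median of -0.08. The share of all genes called was 10.4%. Mef2c, a transcription factor of muscle and heart, was at 125, 58.4 and 91.99 in M4 and 256, 349.6 and 350.3 in M5 (log2 change 1.84, SE 0.37, adjusted p = 0.00092). Twist2, a mesenchymal factor, was at 597, 305 and 439.7 in M4 and 1118, 1472 and 1727 in M5 (log2 change 1.71, SE 0.41, adjusted p = 0.0050). Both groups were separate in each gene. Tbx20, a heart T-box gene, was at 280.0, 468 and 153 in M4 and 1493, 1539 and 979 in M5 (log2 change 2.27, SE 0.63, adjusted p = 0.015), and Gata4, a core heart and lateral plate factor, at 1474, 1048 and 1003 in M4 and 3878, 4371 and 3474 in M5 (log2 change 1.75, SE 0.58, adjusted p = 0.049). The M5 levels of Tbx20 and Gata4 were above every M4 level. Tbx20 lost its call without M4 replicate 3 or M5 replicate 1 or 2 (adjusted p up to 0.12). Gata4 sat at the threshold and lost its call without each of the 6 libraries in turn (adjusted p up to 0.15), with a pseudocount of 0.1 (adjusted p = 0.051) and with adjustment over the genes the authors tested (0.071), while the fit of the 6 libraries alone gave 0.0069. Hand1, a lateral plate factor, was at 3316, 4394 and 2975 in M4 and 5262, 6606 and 5277 in M5 (log2 change 0.69, SE 0.91, adjusted p = 0.70) and Tbx5 was at 1600.1, 382 and 597 in M4 and 703, 1122 and 1501 in M5 (log2 change 0.56, SE 0.69, adjusted p = 0.67). Fitted on the 6 libraries alone, Hand1 had an adjusted p of 0.068 and Tbx5 of 0.60. Under RA alone Hand1 was at 22.04, 37.7 and 15.3 in R4 and 22.01, 9.23 and 14.1 in R5. Nkx2-5, an early heart factor, was at 36.01, 37.7 and 27.2 in M4 and 34.1, 26.9 and 29.9 in M5.

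Among 27 sarcomere and heart muscle genes, 4 rose and 2 fell, with a median of -0.09, where 10.4% of all genes were called. Hspb7, a cardiac small heat shock protein, was at 10.9, 7.74 and 2.93 in M4 and 55.2, 65.05 and 41.02 in M5 (log2 change 2.86, SE 0.54, adjusted p = 0.00049). Popdc2, a cAMP-binding membrane protein of heart muscle, was at 38.1, 33.1 and 19.8 in M4 and 214, 288 and 167 in M5 (log2 change 2.85, SE 0.55, adjusted p = 0.00054). Ryr2, the cardiac calcium release channel, was at 42.7, 46.3 and 31.8 in M4 and 107, 87.7 and 72.2 in M5 (log2 change 1.12, SE 0.25, adjusted p = 0.0027). These 3 rose without overlap, and Ryr2 had an adjusted p of 0.064 with the 6 libraries alone. Mybpc3 also rose (2.08), a call lost without M4 replicate 2 or 3 or M5 replicate 1 or 2 (adjusted p up to 0.13). The fallen members were Actn2, a Z-disc protein, with 56.2, 54.4 and 46.4 in M4 and 16.96, 23.6 and 15.8 in M5 (log2 change -1.45, SE 0.36, adjusted p = 0.0074), and Tpm2 (-0.45, adjusted p = 0.023), whose call was lost without M4 replicate 1 or M5 replicate 2 or 3 (adjusted p up to 0.11) and with the 6 libraries alone (adjusted p = 0.053). The troponin gene Tnnt2 was low and overlapping at 51.5, 14.7 and 8.83 in M4 and 14.4, 22.6 and 13.5 in M5 (log2 change -0.21, SE 0.72, adjusted p = 0.90), and the myosin genes Myh6 (-0.66, adjusted p = 0.45) and Myl7 (-0.10, adjusted p = 0.94) were not called.

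Mesothelial and epicardial genes split. Of 18, 1 rose and 4 fell, with a median of -0.28, where 10.4% of all genes were called. Tbx18, a T-box gene of epicardium and somites, was at 14.6, 8.10 and 18.02 in M4 and 134, 152 and 125 in M5 (log2 change 3.31, SE 0.55, adjusted p = 9.7e-05). Lrrn4, a mesothelial surface protein gene, was at 1641, 1033 and 1040.0 in M4 and 588, 583 and 496 in M5 (log2 change -1.12, SE 0.31, adjusted p = 0.014). Neither gene overlapped between the groups. Gpm6a (-2.04), Podxl (-1.08) and Efemp1 (-1.02) fell as well. The calls were lost for Lrrn4 without M4 replicate 1 or M5 replicate 3 (adjusted p up to 0.089), for Gpm6a without M4 replicate 1 or 3 or M5 replicate 1 or 2 (adjusted p up to 0.12) and with the 6 libraries alone (adjusted p = 0.099), for Podxl without M4 replicate 1 or 3 or M5 replicate 1, 2 or 3 (adjusted p up to 0.18) and for Efemp1 without M4 replicate 1 or 3 or M5 replicate 1, 2 or 3 (adjusted p up to 0.18) and with the 6 libraries alone (adjusted p = 0.11). Wt1, a mesothelial regulator, was at 2436, 1103 and 1284 in M4 and 1659, 1828 and 1874 in M5 (log2 change 0.24, SE 0.45, adjusted p = 0.80).

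Mesenchymal and matrix genes leaned upward with few calls. Of 34 members, 3 rose and 1 fell, where 10.4% of all genes were called, while 32 had a positive change and the median was 0.63. Vcan, a proteoglycan of the heart and limb mesenchyme, was at 2566, 1463 and 2765 in M4 and 5579, 8089 and 7411 in M5 (log2 change 1.67, SE 0.33, adjusted p = 0.00088). Snai1, a driver of epithelial-mesenchymal transition, was at 594, 633 and 642 in M4 and 1034, 1145 and 1236 in M5 (log2 change 0.87, SE 0.27, adjusted p = 0.031). In both, M5 lay above M4. Snai1 lost its call without each of the 6 libraries in turn (adjusted p up to 0.094), while the fit of the 6 libraries alone gave 0.012. Timp1 rose by 1.03 with 1 M5 library inside the M4 range, and lost its call without M4 replicate 1 or 3 or M5 replicate 1 or 2 (adjusted p up to 0.27) and with the 6 libraries alone (adjusted p = 0.20). The surface glycoprotein gene Thy1 fell by 1.81 (adjusted p = 0.026), a call lost without M4 replicate 1 or 2 or M5 replicate 3 (adjusted p up to 0.13) and with the 6 libraries alone (adjusted p = 0.066). The summed level of the list was 108638, 71919 and 71097 in M4 and 132242, 135060 and 130890 in M5.

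A group of endothelial and blood genes rose. Of 24 members, 8 rose and 0 fell, with a median of 1.22 and 21 positive changes. Cldn5, a tight junction protein of endothelium, was at 61.7, 62.00 and 50.9 in M4 and 244, 319 and 314 in M5 (log2 change 2.30, SE 0.50, adjusted p = 0.0019). Plvap, of endothelial fenestrae, was at 118, 202 and 122 in M4 and 432, 577 and 434 in M5 (log2 change 1.73, SE 0.35, adjusted p = 0.00098). Tek, the angiopoietin receptor Tie2, was at 161, 239 and 101 in M4 and 411, 474 and 321 in M5 (log2 change 1.33, SE 0.29, adjusted p = 0.0018). All 3 were separate between M4 and M5, and the adjusted p of Tek was 0.072 with the 6 libraries alone. Emcn, an endothelial sialomucin gene, rose by 3.30 (adjusted p = 0.0030), Sox18 by 1.41 and Erg by 1.23. Sox18 lost its call without M4 replicate 3 or M5 replicate 2 (adjusted p up to 0.066), and Erg without M4 replicate 3 or M5 replicate 1, 2 or 3 (adjusted p up to 0.27) and with the 6 libraries alone (adjusted p = 0.097). The embryonic globin gene Hbb-bh1 was at 4.02, 4.36 and 1.00 in M4 and 76.3, 155 and 28.4 in M5 (log2 change 4.23, SE 0.89, adjusted p = 0.0014). Hba-x was at 1.17, 17.7 and 1.18 in M4 and 91.3, 119 and 45.1 in M5 (log2 change 4.17, SE 0.92, adjusted p = 0.0023), and its adjusted p was 0.051 with the 6 libraries alone. M5 replicate 3 was the lowest M5 library for both globin genes. Kdr, the VEGF receptor that marks blood and vessel progenitors, was at 2694, 1595 and 1183 in M4 and 1358, 1449 and 1304 in M5 (log2 change -0.33, SE 0.55, adjusted p = 0.77). The summed level of the list was 6765, 5700 and 4112 in M4 and 7264, 8074 and 7310 in M5.

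Surface ectoderm genes were mixed. Of 33 epithelial members, 1 rose and 3 fell, where 10.4% of all genes were called. Grhl1 and Grhl3 encode related grainyhead factors of epithelial barriers, and they moved in opposite directions. Grhl3 was at 613, 612 and 813 in M4 and 145, 168 and 143 in M5 (log2 change -2.15, SE 0.31, adjusted p = 1.4e-05) and Grhl1 at 81.4, 92.7 and 69.2 in M4 and 317, 255 and 232 in M5 (log2 change 1.71, SE 0.28, adjusted p = 6.4e-05). Neither gene overlapped between M4 and M5. Tfap2c, a regulator of surface ectoderm and trophectoderm, was at 637, 567 and 685 in M4 and 224, 164 and 217 in M5 (log2 change -1.65, SE 0.35, adjusted p = 0.0016), and the third fallen member was Wnt6. The keratin gene Krt8 was at 3628, 2531 and 2212 in M4 and 3126, 3345 and 2783 in M5 (log2 change 0.17, SE 0.20, adjusted p = 0.66). Among 23 endoderm and extraembryonic genes, 3 apolipoprotein genes rose, Apoa1 (2.41), Apoc2 (1.56) and Apom (1.17), and Cdx2 fell. Apoa1 lost its call without M4 replicate 3 or M5 replicate 1 or 2 (adjusted p up to 0.13). Apoc2 lost its call without each of the 6 libraries in turn (adjusted p up to 0.17) and with the 6 libraries alone (adjusted p = 0.054), and Apom without M4 replicate 2 or 3 or M5 replicate 1, 2 or 3 (adjusted p up to 0.16) and with the 6 libraries alone (adjusted p = 0.064).

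In the neural lists the called members all fell, while Phox2a, a gene of neurons kept in the neural crest list, rose (given below). Of 30 neural progenitor genes, 1 fell and 0 rose, where 10.4% of all genes were called. The number called was 5 without M5 replicate 3 and 14 with library weights, a setting that called 4921 of all 11220 genes. Sox2, which marks neural progenitors and pluripotent cells, was at 779, 1088 and 1904 in M4 and 1103, 630.5 and 1652 in M5 (log2 change -0.16, SE 0.30, adjusted p = 0.80), and Pax6 at 96.7, 42.1 and 148 in M4 and 109, 82.5 and 302 in M5 (log2 change 0.71, SE 0.59, adjusted p = 0.50). Sox2 and Pax6 overlapped between the groups. Of 31 proneural and neuronal genes, 4 fell and 0 rose, beside 10.4% of all genes called. Ina, the internexin neurofilament gene, was at 638, 453 and 313 in M4 and 124, 112 and 137 in M5 (log2 change -1.85, SE 0.36, adjusted p = 0.00065). Crmp1 (-0.97), Stmn3 (-1.52) and Chga (-1.16) fell with it. Crmp1 lost its call without M4 replicate 1 (adjusted p = 0.052) and with the 6 libraries alone (adjusted p = 0.090), Stmn3 without M4 replicate 1 or M5 replicate 2 (adjusted p up to 0.089) and with the 6 libraries alone (adjusted p = 0.062) and Chga without M4 replicate 1 or 2 or M5 replicate 2 or 3 (adjusted p up to 0.087) and with the 6 libraries alone (adjusted p = 0.072). The neuronal tubulin gene Tubb3 was at 393, 189 and 108 in M4 and 292, 93.6 and 229 in M5 (log2 change -0.12, SE 0.85, adjusted p = 0.95). Of 23 dorsal interneuron transcription factors, 3 fell and 0 rose, again beside 10.4% of all genes: Lhx1 (-2.75), Pax2 (-1.96) and Pou4f1 (-1.47). Lhx1 was at 1762, 365 and 1486 in M4 and 61.7, 158 and 316 in M5 (log2 change -2.75, SE 0.76, adjusted p = 0.015), with M5 below every M4 level. Lhx1 and Pax2 also belong to the 18 intermediate mesoderm genes, of which 4 fell and 0 rose, together with Ret (-1.46) and Wnt9b (-1.64). The calls were lost for Lhx1 without M4 replicate 1 or 3 or M5 replicate 1 (adjusted p up to 0.12) and with the 6 libraries alone (adjusted p = 0.097), for Pax2 without M4 replicate 1 or 3 or M5 replicate 1 or 2 (adjusted p up to 0.14) and with the 6 libraries alone (adjusted p = 0.10), for Pou4f1 without M4 replicate 1 or 3 or M5 replicate 1 or 2 (adjusted p up to 0.18) and with the 6 libraries alone (adjusted p = 0.10), for Ret without M4 replicate 1 or 3 or M5 replicate 1 or 2 (adjusted p up to 0.23) and with the 6 libraries alone (adjusted p = 0.12) and for Wnt9b without M4 replicate 1 or 3 or M5 replicate 1, 2 or 3 (adjusted p up to 0.24) and with the 6 libraries alone (adjusted p = 0.10).

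Of 23 neural crest genes, 4 rose and 0 fell, where 10.4% of all genes were called. In this list 12 had a negative change, and the median was -0.04. Phox2a, a homeobox gene of autonomic and hindbrain neurons, was at 108, 116 and 81.4 in M4 and 608, 609 and 579.8 in M5 (log2 change 2.56, SE 0.23, adjusted p = 3.8e-09). The 3 M5 libraries were close together and far above M4. Mef2c, given above, Ets1 (0.99) and Sox8 (0.67) were the other 3. Ets1 lost its call without M4 replicate 2 or 3 or M5 replicate 2 or 3 (adjusted p up to 0.092), and Sox8 without M4 replicate 3 or M5 replicate 2 or 3 (adjusted p up to 0.17) and with the 6 libraries alone (adjusted p = 0.21).

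Among the M4 libraries, replicate 2 had the lowest summed level of Hox groups 1 to 5 (17888, 5213 and 19176) and of groups 6 to 9. Of 15 members of paralogue groups 1 to 5, 1 fell and 0 rose: Hoxd1, with 275, 136 and 360.2 in M4 and 29.02, 40.2 and 84.4 in M5 (log2 change -2.34, SE 0.58, adjusted p = 0.0069). Hoxd1 lost its call without M4 replicate 3 or M5 replicate 1 (adjusted p up to 0.059) and with the 6 libraries alone (adjusted p = 0.051). Hoxb1, an early RA target, was at 823, 376 and 2065 in M4 and 171, 422 and 734 in M5 (log2 change -1.20, SE 1.10, adjusted p = 0.55). All 12 genes of groups 6 to 9 had a negative change with a median of -0.52, and 0 were called. Their summed level was 21619, 5000 and 26653 in M4 and 3926, 6584 and 18173 in M5, so that M4 replicate 2 lay among the M5 libraries. The summed neural progenitor level was 21612, 10787 and 22395 in M4 and 11774, 14456 and 23281 in M5, where the same library was the lowest. Its part in the results was not tested beyond leaving it out, which gave 1083 called genes.

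**Figure D3:**
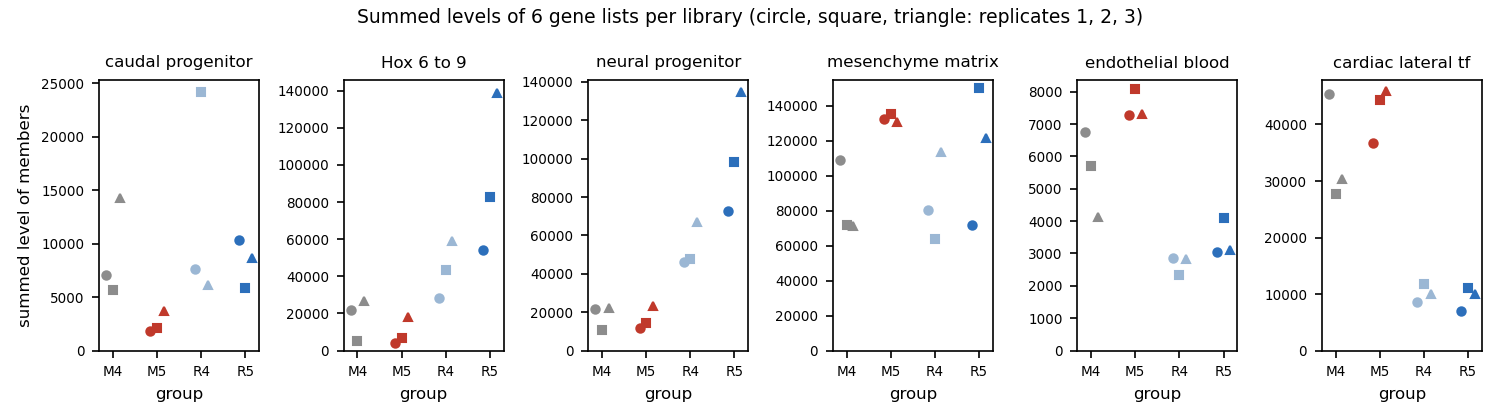
Summed deposited level of 6 gene lists in each library of M4, M5, R4 and R5, with circles, squares and triangles for replicates 1, 2 and 3. The caudal list is lower in every M5 library than in any M4 library, the mesenchymal and endothelial lists are higher, and the Hox and neural progenitor lists overlap between M4 and M5.

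Of 27 DNA replication genes, 1 fell and 0 rose, and library weights called 15. It was E2f1, at 942, 1053 and 1069 in M4 and 848, 814 and 792 in M5 (log2 change -0.32, SE 0.08, adjusted p = 0.0048), with an adjusted p of 0.11 with the 6 libraries alone. Of 22 mitotic genes, 0 were called, 0 had an unadjusted p under 0.05 and library weights called 2. Since library weights called 4921 of all 11220 genes, the 15 replication and 2 mitotic genes are to be read beside that share. Mki67 was at 8752, 8507 and 9947 in M4 and 9686, 11324 and 11044 in M5 (log2 change 0.24, SE 0.17, adjusted p = 0.44). Of 22 genes in the list of cell cycle inhibitors and p53 targets, which also holds the cyclin gene Ccnd1, 5 fell and 1 rose. Cdkn1a, the cyclin-dependent kinase inhibitor p21, was at 2252, 1897 and 2256 in M4 and 1464, 1218 and 1462 in M5 (log2 change -0.63, SE 0.12, adjusted p = 0.00049). Ccng1, a p53 target, was at 14696, 14290.5 and 15305 in M4 and 10051, 9095 and 9819.8 in M5 (log2 change -0.61, SE 0.10, adjusted p = 5e-05). Ccnd1, the cyclin of G1 phase, was at 5994, 5999 and 7607 in M4 and 2847, 2792 and 4187 in M5 (log2 change -1.01, SE 0.16, adjusted p = 6.9e-05). In each, every M5 library lay below every M4 library. Zmat3 (-0.42) and Phlda3 (-0.63) fell too, and Zmat3 had an adjusted p of 0.051 with the 6 libraries alone. Fas, the death receptor and another p53 target, rose in the opposite direction, at 39.1, 18.01 and 23.00 in M4 and 124, 145 and 129 in M5 (log2 change 2.34, SE 0.27, adjusted p = 4.3e-07).

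The remaining lists are given beside the 10.4% of all genes that were called. Of 43 guidance and cadherin genes, 5 fell and 1 rose. Sema3e, a repulsive guidance ligand, was at 723, 582 and 943 in M4 and 139, 162 and 185 in M5 (log2 change -2.18, SE 0.27, adjusted p = 1.6e-06), and the risen Epha7 at 774, 385 and 503 in M4 and 1188, 1554 and 1883 in M5 (log2 change 1.51, SE 0.36, adjusted p = 0.0047). Both genes were separate between the groups. Pcdh19 (-1.78), Cdh4 (-1.06), Sema6a (-0.93) and Slit1 (-2.15) fell too. With the 6 libraries alone the adjusted p was 0.086 for Pcdh19 and 0.064 for Cdh4, and Sema6a lost its call without M4 replicate 1 or 3 or M5 replicate 1 or 2 (adjusted p up to 0.16) and with the 6 libraries alone (adjusted p = 0.21). Of 27 genes in the pluripotency list, whose median was -0.12, 1 rose. It was the DNA methyltransferase gene Dnmt3a (0.56, adjusted p = 0.011), a call lost without M4 replicate 3 or M5 replicate 2 (adjusted p up to 0.071). Pou5f1 was at 594, 1563 and 387 in M4 and 863, 651 and 346 in M5 (log2 change -0.29, SE 0.71, adjusted p = 0.85). Of 21 imprinted genes, Rian (0.79, adjusted p = 3.6e-05) and Plagl1 (2.30, adjusted p = 0.018) rose, and Plagl1 lost its call without M4 replicate 2 or M5 replicate 2 (adjusted p up to 0.11). Of 25 hypoxia-responsive and glycolytic genes, Adm rose (2.22) and Egln3 (-1.07) and Slc2a3 (-1.33) fell. Adm lost its call without M4 replicate 2 or 3 or M5 replicate 2 (adjusted p up to 0.10) and with the 6 libraries alone (adjusted p = 0.092), and Slc2a3 without M4 replicate 2 or 3 or M5 replicate 2 (adjusted p up to 0.15). Among 22 smooth muscle and actin genes Tpm2 fell, as given above. Cnn2 (1.24) in that list and Dusp1 (0.69) among 20 immediate early genes rose. Cnn2 lost its call without M4 replicate 3 or M5 replicate 1 or 2 (adjusted p up to 0.15) and with the 6 libraries alone (adjusted p = 0.058), and Dusp1 without M4 replicate 3 or M5 replicate 2 (adjusted p up to 0.088) and with the 6 libraries alone (adjusted p = 0.056). Of the 7 Hox genes of groups 10 to 13, 0 were called by limma-trend and 1 had an unadjusted p under 0.05. Library weights called 2 of them, and 4921 of all 11220 genes.

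Whether these changes differ from those over the same day under RA alone was asked with an interaction contrast, (M5 over M4) minus (R5 over R4). The 4 groups share no library between the 2 comparisons. Under RA alone 1430 genes were called (12.7%), 795 higher (7.09%) and 635 lower (5.66%). That split depends on scaling: it was 593 higher and 720 lower with median scaling and 649 and 714 with quantile normalization. The change differed between the treatments for 757 genes (6.75%), 397 in the positive direction (3.54%) and 360 in the negative (3.21%). Of the 586 genes that rose with the combined treatment, 214 had a called positive difference and 0 a called negative one, 81 also rose under RA alone and 32 fell there. The median change of the 586 was 0.98 with the combined treatment and 0.07 under RA alone. Of the 577 fallen genes, 169 had a called negative difference and 1 a positive one, 121 also fell under RA alone and 22 rose there. Their median was -1.08 with the combined treatment and -0.19 under RA alone. The 586 and 577 were chosen on M5 over M4, which is one side of the interaction contrast, so the direction of these counts and medians follows largely from that choice and they are a description.

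**Figure D4:**
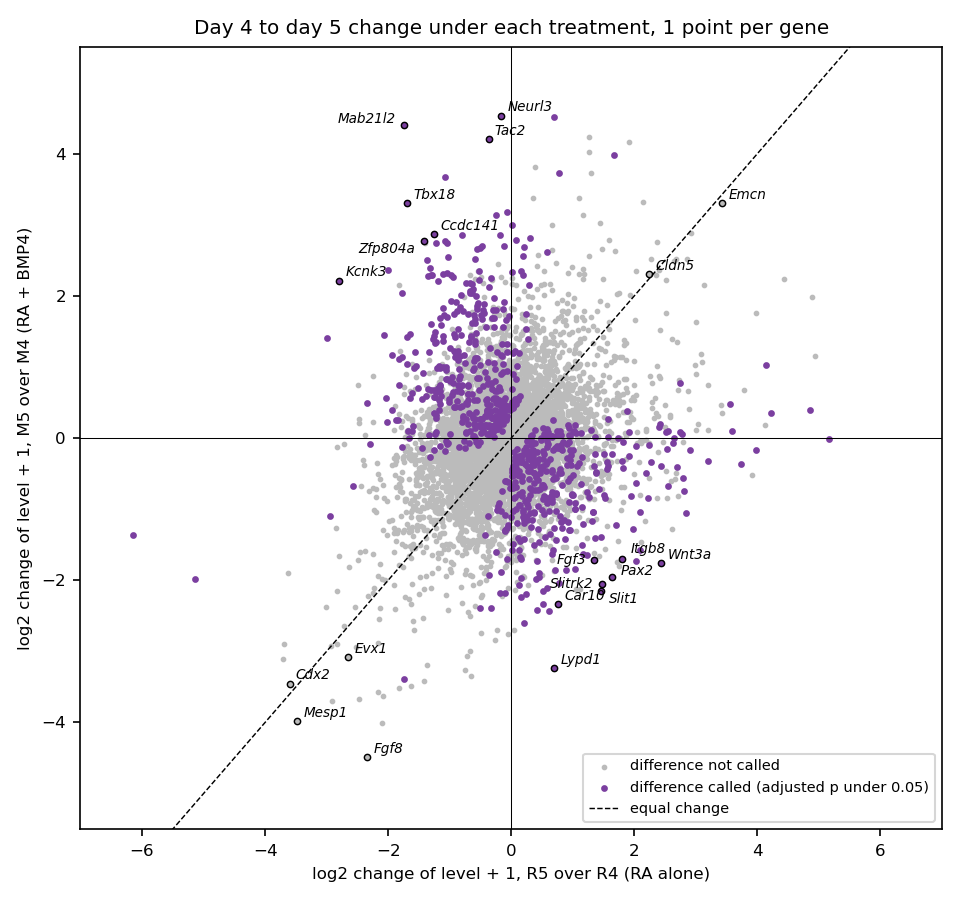
Log2 change from day 4 to day 5 of each of 11220 genes under RA alone (horizontal axis) and under RA with BMP4 (vertical axis). Purple points are the 757 genes whose difference of changes was called, the dashed line marks equal change, and labelled genes are circled. Mab21l2, Tbx18 and Kcnk3 lie in the upper left, Wnt3a and Pax2 in the lower right, and Cdx2, Evx1 and Cldn5 near the line.

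The differences given here are of genes called both in M5 over M4 and in the interaction contrast. The leading positive ones belonged to genes that rose with the combined treatment. Mab21l2 was at 30.9, 27.1 and 86.4 in R4 and 3.98, 26.1 and 14.6 in R5, and the difference of log2 changes was 6.14, SE 1.12, adjusted p = 0.00076. Kcnk3, a potassium leak channel gene, was at 94.5, 37.4 and 151 in M4 and 229.7, 527 and 456 in M5 (log2 change 2.21, SE 0.45, adjusted p = 0.0011) and at 42.2, 101 and 83.7 in R4 and 6.99, 9.30 and 12.4 in R5 (difference 5.01, SE 0.64, adjusted p = 4.7e-06). For Tbx18, R4 stood at 114, 183 and 114 and R5 at 27.8, 67.6 and 35.1 (difference 5.00, SE 0.78, adjusted p = 9e-05). In Kcnk3 and Tbx18 the M and R libraries thus moved in opposite directions without overlap. Neurl3 had a difference of 4.70 (adjusted p = 4.1e-05), and Tac2 one of 4.57 (adjusted p = 3.4e-05). Ccdc141 was at 51.8, 60.96 and 57.9 in M4 and 439.8, 506 and 335 in M5 (log2 change 2.87, SE 0.55, adjusted p = 0.00058) and had a difference of 4.12 (adjusted p = 0.0010). Zfp804a had one of 4.20 (adjusted p = 0.022), a call lost without R4 replicate 1, M4 replicate 2 or 3, R5 replicate 1 or M5 replicate 2 (adjusted p up to 0.071) and with the 12 libraries alone (adjusted p = 0.062). Its rise with the combined treatment (2.78) lost its call without M4 replicate 2 or 3 or M5 replicate 2 or 3 (adjusted p up to 0.15) and with the 6 libraries alone (adjusted p = 0.094). The M5 over M4 rise of Kcnk3 had an adjusted p of 0.073 with the 6 libraries alone.

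The leading negative differences included ligand, receptor and transcription factor genes. Wnt3a was at 114, 166 and 146 in R4 and 624, 980.1 and 741 in R5 (difference -4.20, SE 0.80, adjusted p = 0.0010). Pax2, a factor of interneurons and kidney, was at 241, 112 and 383 in M4 and 31.2, 55.2 and 98.3 in M5, and at 191, 310.1 and 177 in R4 and 529.9, 645 and 940.3 in R5 (difference -3.60, SE 0.77, adjusted p = 0.0037). All 3 R5 libraries were above R4 for both genes, while M5 lay below M4 for Pax2. The integrin gene Itgb8 was at 148, 44.3 and 108 in M4 and 18.4, 27.2 and 38.1 in M5 and at 163, 78.6 and 309 in R4 and 302, 632 and 895 in R5 (difference -3.51, SE 0.76, adjusted p = 0.0038). Lypd1 had a difference of -3.94 (adjusted p = 3.2e-07), Car10 of -3.10 (adjusted p = 0.00083) and Fgf3 of -3.06 (adjusted p = 0.00075). Slit1, a midline guidance ligand, and the neuronal membrane gene Slitrk2 had differences of -3.60 and -3.52. Their calls were lost without M4 replicate 1 or 3, R5 replicate 3 or M5 replicate 1 or 2 (adjusted p up to 0.076) and with the 12 libraries alone (adjusted p = 0.067) for Slit1 and without M4 replicate 1 or 3, R5 replicate 3 or M5 replicate 1 or 2 (adjusted p up to 0.069) and with the 12 libraries alone (adjusted p = 0.065) for Slitrk2. The falls of these genes with the combined treatment were called too. That of Slit1 was lost without M4 replicate 1 or 3 or M5 replicate 1 or 2 (adjusted p up to 0.22) and with the 6 libraries alone (adjusted p = 0.19). Slitrk2 lost it without M4 replicate 1 or 3 or M5 replicate 1 or 2 (adjusted p up to 0.19) and with the 6 libraries alone (adjusted p = 0.18), and Itgb8 without M4 replicate 1 or 3 or M5 replicate 1 or 2 (adjusted p up to 0.15) and with the 6 libraries alone (adjusted p = 0.11).

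For the caudal genes the difference was mostly not called. Of 21 members, 1 (Wnt3a) had a called difference, 0 had a positive one, and 7 fell and 1 rose under RA alone with a median of -1.59. Cdx2 changed by -3.60 under RA alone (adjusted p = 0.012) and its difference was 0.15, SE 1.34, adjusted p = 0.97. Mesp1 changed by -3.48 (adjusted p = 0.0032) and its difference was -0.50, SE 1.10, adjusted p = 0.85. With standard errors of this size, a missed threshold does not show that the treatments act alike. Fgf8 changed by -2.34 under RA alone (adjusted p = 0.067), with a difference of -2.14, SE 1.21, adjusted p = 0.31. Of 24 FGF genes, 6 fell and 2 rose under RA alone, and their median of -0.65 there was close to the -0.69 of the combined treatment. The difference was called negative for 3 of them and positive for 2. Each positive call was lost with at least 1 library left out. Of 24 endothelial and blood genes, 0 had a called difference. Lyve1, Robo4 and Clec14a, endothelial genes outside that list that were chosen after their values were seen, had called differences of 3.25 (adjusted p = 0.0027), 3.88 (adjusted p = 0.0044) and 3.27 (adjusted p = 0.0020). Of the 24 genes, 2 rose under RA alone, and Cldn5 rose there by 2.24 (adjusted p = 0.0031). Of 30 neural progenitor genes, 7 rose and 3 fell under RA alone, and the difference was called negative for 4 (Sox3, Pax7, Nes and Msi1) and positive for 1 (Ncam1). Each of these 5 calls was lost without at least 4 of the 12 libraries in turn. Of 15 Hox genes of groups 1 to 5, 3 rose and 0 fell under RA alone, with a median of 1.06.

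Later days of the combined treatment, after the factors' 48 h, were read as levels without a test. Fgf8, at 2158, 369 and 346 on day 3, stood at 28.04, 42.8 and 48.4 in M7 (day 7) and 247, 206 and 222 in M9 (day 9). All M9 libraries were above all M5 libraries. Sp5 was at 204, 357 and 306 in M7 and 514, 629 and 555 in M9, again above M5. Hba-x was at 418, 1559 and 51.7 in M7 and 1.18, 1.86 and 1.25 in M9, and Popdc2 at 259.5, 296 and 274 and 18.5, 41.4 and 30.3. Both were low again in all 3 M9 libraries. Phox2a was at 188, 166 and 194 in D3, 91.2, 114 and 109 in M7 and 175, 121 and 117 in M9, below its 3 M5 levels at each of these days. Tbx18 was at 306, 265 and 190.5 in M7 and 90.3, 128 and 66.2 in M9. Gata4 was at 3687, 4769 and 3720.0 in M7 and 1339, 2574 and 2046 in M9.

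**Figure D5:**
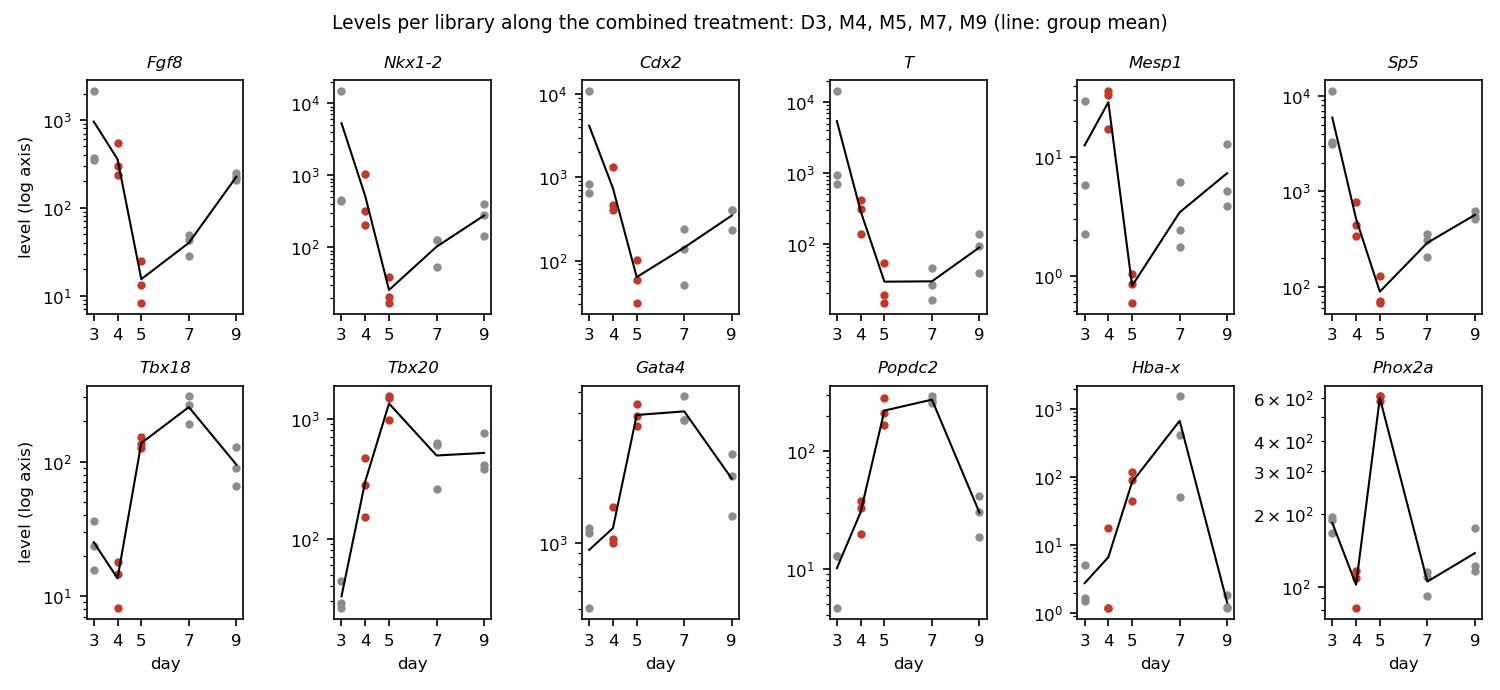
Deposited level per library (log axis) of 12 genes on days 3, 4, 5, 7 and 9 of the combined treatment, with M4 and M5 in red, the other days in gray and lines through the group means. Fgf8, Nkx1-2, Cdx2 and Sp5 are lowest on day 5 and higher on day 9, and Phox2a is highest on day 5.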

How the data were processed

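Bulk RNA-seq of 45 libraries was used as deposited. The deposited level columns, a normalized signal per gene and library, hold 0 zeros and 1 exactly whole value, so they were not treated as counts. The authors' own log2 fold change and p-value columns (with their false discovery rates) cover 12 comparisons, none of M5 with M4, and served to describe which genes the table lists. The deposited score columns (headed fpkm and Rank) were not used for any test. The submitters' processing notes list Picard, edgeR and mm10. Which aligner, counter and annotation were used is not given in the sources used here. Excel-style dates stood in place of 22 symbols, of which 19 were restored. Coordinates (GENCODE M21, mm10) matched 10766 genes. A test on counts was not possible on these values.

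Levels were tested as log2(level + 1) with limma 3.58.1 (R 4.3.3; trend and robust moderation, 15 group means, 45 libraries), adjusted by Benjamini-Hochberg over 11220 genes and called under 0.05. A filter of level 1 in 3 libraries removed 0 genes. The script was tested on simulated data. Tables and figures used Python 3.11.15, pandas 2.3.3 and matplotlib 3.10.9. Depth is unknown, and each group has 3 libraries. The spread behind each SE and p-value came from all 45 libraries in 15 groups. It is not the spread of M4 and M5 alone. The deposited list was itself selected by the authors' tests on these libraries.

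Groups came from the sample labels. Genes were named by rule: the 15 risen and 15 fallen genes with the largest change among called genes without overlap and with a higher group mean of at least 20; up to 4 called members of each list by adjusted p; the 8 largest positive and 8 largest negative differences among genes called in both contrasts with such a mean; and Hand1, Gata4, Tbx5, Tnnt2, Sox2, Pax6, T, Pou5f1, Id1, Msx2, Cyp26a1, Hoxb1, Krt8, Kdr, Mki67 and Tubb3. Other list members named and the genes in the closing observations were chosen after their values were seen. A few genes that these rules or the lists hold are not reported here. Members, lists and tests were chosen with earlier results of these data known. Replicate numbers were not used to pair M4 with M5, as the deviations of same-numbered libraries correlated at -0.306, 0.137 and 0.421, where each had to be over 0.1. With 3 libraries per group this check cannot show whether same-numbered libraries share a differentiation. Each result was recomputed leaving out 1 library at a time, fitting just the compared libraries, adding a replicate block, and with pseudocounts of 0.1 and 5, a filter at level 10, quantile normalization, median scaling, library weights, adjustment over about 16018 genes tested by the authors and thresholds of 0.01 and 0.1.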

Additional observations from a re-analysis of the deposited data

Results flagged for a closer look

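The change from day 4 to day 5 differed between the combined treatment and RA alone for 757 genes by the interaction contrast (limma-trend, Benjamini-Hochberg adjusted p under 0.05). The values below are differences of log2 changes, combined minus RA alone, for genes named by rule that the interaction contrast called.

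Among the leading risen genes the difference was 6.14 for Mab21l2, 4.70 for Neurl3, 4.57 for Tac2, 3.81 for Shisa3, 2.96 for Smoc2 and 2.32 for Npy1r. Among other risen genes it was 5.01 for Kcnk3, 5.00 for Tbx18, 4.20 for Zfp804a and 4.12 for Ccdc141. Muscle and heart genes had differences of 3.66 for Hspb7, 3.21 for Tbx20, 3.04 for Popdc2 and 1.71 for Ryr2. The Notch effector Hey2 had 2.95, the epithelial Grhl1 2.75, the neural crest genes Phox2a 2.37 and Sox8 0.93, the death receptor Fas 2.32, the matrix gene Vcan 2.27, Snai1 1.70 and Dnmt3a 0.83.

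Negative differences were -4.20 for Wnt3a, -3.94 for Lypd1, -3.60 for Slit1, -3.60 for Pax2, -3.52 for Slitrk2, -3.51 for Itgb8, -3.10 for Car10 and -3.06 for Fgf3. They were -2.87 for Wnt9b, -2.85 for Hoxd1, -2.37 for Wnt6, -1.99 for Bmp7, -1.65 for Tchh, -1.53 for Bmp2, -1.37 for Cdh4 and -1.07 for Spry1. Among cell cycle genes they were -1.0 for Cdkn1a, -0.79 for Ccnd1, -0.56 for Ccng1 and -0.38 for E2f1.

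Some of these calls rested on few libraries. That of Shisa3 was lost without R4 replicate 1 or 3, M4 replicate 3, R5 replicate 1 or M5 replicate 2 (adjusted p up to 0.067), that of Smoc2 without R4 replicate 1 or 3, M4 replicate 3, R5 replicate 1 or 3 or M5 replicate 1 or 2 (adjusted p up to 0.098) and with the 12 libraries alone (adjusted p = 0.052), and that of Tbx20 without M4 replicate 3 or M5 replicate 1 or 2 (adjusted p up to 0.083). Tchh lost it without R4 replicate 3, R5 replicate 1 or M5 replicate 1 (adjusted p up to 0.063) and with the 12 libraries alone (adjusted p = 0.059), Sox8 without R4 replicate 1, M4 replicate 3, R5 replicate 2 or 3 or M5 replicate 2 (adjusted p up to 0.11) and with the 12 libraries alone (adjusted p = 0.13), Wnt9b without M4 replicate 1 (adjusted p = 0.075) and Hoxd1 without R4 replicate 1 or 3, M4 replicate 1 or 3, R5 replicate 1 or 3 or M5 replicate 1 or 2 (adjusted p up to 0.096) and with the 12 libraries alone (adjusted p = 0.051). E2f1 lost it without R4 replicate 1 or 2, M4 replicate 3, R5 replicate 1 or 3 or M5 replicate 2 or 3 (adjusted p up to 0.083) and with the 12 libraries alone (adjusted p = 0.073) and Ccnd1 without R4 replicate 1 or 3, M4 replicate 3, R5 replicate 1 or 3 or M5 replicate 1 or 2 (adjusted p up to 0.12) and with the 12 libraries alone (adjusted p = 0.084). Npy1r lost it with the 12 libraries alone (adjusted p = 0.075). With median scaling the adjusted p was 0.12 for Ccng1, 0.13 for E2f1 and 0.083 for Ccnd1, and with quantile normalization it was 0.055 for Tchh and 0.11 for E2f1. Other genes named in the text that were called in the contrast, chosen after their values were seen, were Wnt2 (3.60), Sfrp1 (2.75), Spry2 (1.30), Ncam1 (1.98), Lyve1 (3.25), Robo4 (3.88), Clec14a (3.27) and Pnmt (2.67) in the positive direction. In the negative direction they were Axin2 (-1.22), Zmat3 (-0.46), Sox3 (-2.29), Pax7 (-3.05), Nes (-1.30), Msi1 (-1.90), Oasl2 (-2.84), Gbp3 (-2.06), Isg15 (-2.39) and Irgm1 (-1.71). Of these, Wnt2, Lyve1, Robo4, Clec14a and Oasl2 kept the call without each of the 12 libraries and with the 12 alone, and each of the others lost it in at least 1 of these fits. The causes of the differences were not tested.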

How the results depend on the processing

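The number of genes called between M4 and M5 stayed within 1.5 times 1163 under pseudocounts of 0.1 and 5, the level filters, quantile normalization, median scaling, the wider adjustment, a threshold of 0.1 and a replicate block over all libraries (1123). It was 496 with the compared libraries alone, 185 with the compared libraries and a replicate block, 4921 with library weights, 628 under 0.01 and 636 to 1083 with 1 library left out. For R5 over R4 these were 477, 2, 6586, 542 and 517 to 1549, with 2179 under 0.1 and 1359 with the block over all libraries. For the difference they were 363, 295, 5604, 280 and 416 to 1020, with 1275 under 0.1 and 745 with the block over all libraries. Whether replicate numbers pair the libraries is not known, and what a call lost under the block means was not tested. With the compared libraries and a replicate block, called members were 7 WNT, 2 FGF, 4 Notch, 3 heart muscle, 2 mesothelial, 4 endothelial and blood, 3 paraxial, 2 p53 and cell cycle, and 2 guidance genes. With the compared libraries alone they were 8 WNT, 7 FGF, 4 Notch and 2 guidance genes. Library weights gave 23 WNT, 17 FGF, 15 Notch, 16 heart muscle, 10 mesothelial, 17 endothelial and blood, 10 paraxial, 18 p53 and cell cycle, and 20 guidance genes. Under 0.01 there were 4 Notch, 1 mesothelial and 8 caudal genes, and the wider adjustment gave 3 mesothelial genes. With 1 library left out the ranges were 10 to 13 WNT, 7 to 12 FGF, 2 to 7 Notch, 4 to 6 heart muscle, 1 to 5 mesothelial, 6 to 11 endothelial and blood, 7 to 14 caudal, 3 to 5 paraxial, 6 to 7 p53 and cell cycle, and 4 to 6 guidance genes. Of 108 genes named by rule and called between M4 and M5, 64 kept their call with each library left out and 71 with the 6 libraries alone, and no called change of these reversed. The changes of Tnnt2, Sox2, Pou5f1 and Tubb3, which were not called, took both signs with 1 library left out. Apart from the effect of fewer samples, the cause of these shifts was not tested. Depth is unknown and limits none of these counts in a way that could be measured.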

Other observations

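The genes below were chosen after their values were seen, and their changes are given as values. Further endothelial genes had log2 changes from M4 to M5 of 3.19 for Lyve1 (a hyaluronan receptor of lymphatic and early endothelium, 4.56, 2.30 and 1.52 in M4 and 26.6, 38.4 and 30.9 in M5, adjusted p = 2.8e-05), 2.88 for Mmrn1 (adjusted p = 0.00057), 2.65 for Clec1b (adjusted p = 0.00053), 2.29 for Clec14a (adjusted p = 0.0010) and 2.29 for Stab1 (adjusted p = 0.00084). Robo4, an endothelial guidance receptor, had 2.51 (adjusted p = 0.0052), a call lost without M4 replicate 3 (adjusted p = 0.055). In each of these genes every M5 library lay above every M4 library. The change differed from that under RA alone for Lyve1 (3.25, adjusted p = 0.0027), Robo4 (3.88, adjusted p = 0.0044) and Clec14a (3.27, adjusted p = 0.0020).

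Some interferon-responsive and antigen-processing genes were chosen in the same way and belong to none of the lists. Psmb8, an immunoproteasome subunit, was at 232, 120.5 and 131 in M4 and 13.02, 20.1 and 20.7 in M5 (log2 change -3.06, SE 0.60, adjusted p = 0.00072), and Isg15 at 37.2, 11.1 and 15.6 in M4 and 4.40, 3.21 and 2.25 in M5 (log2 change -2.23, SE 0.48, adjusted p = 0.0017). Irgm1 had a log2 change of -1.88 (adjusted p = 0.00010), Gbp2 of -1.74 (adjusted p = 0.0015) and Mndal of 1.64 (adjusted p = 0.0058). Oasl2 had a log2 change of -2.43 (adjusted p = 0.00084) and Gbp3 of -2.39 (adjusted p = 8e-05). Rsad2 had 1.81 (adjusted p = 0.013) and Ifi203 1.76 (adjusted p = 0.020), both higher in M5. With the 6 libraries alone the adjusted p was 0.055 for Isg15, 0.051 for Gbp3, 0.053 for Gbp2 and 0.052 for Mndal. Rsad2 lost its call without M4 replicate 3 or M5 replicate 1 (adjusted p up to 0.066), and Ifi203 without M4 replicate 2 or M5 replicate 3 (adjusted p up to 0.14) and with the 6 libraries alone (adjusted p = 0.12).

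Pnmt, which makes adrenaline, and Ddc, which makes dopamine, had log2 changes of 1.78 (adjusted p = 0.0092) and 1.77 (adjusted p = 0.033). Th and Dbh of the same route were not called, with 0.85 (adjusted p = 0.21) and -0.30 (adjusted p = 0.84). Pnmt lost its call without M4 replicate 2 or M5 replicate 2 (adjusted p up to 0.053), and Ddc without M4 replicate 2 or 3 or M5 replicate 1 or 2 (adjusted p up to 0.16).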
